A study of Mus musculus with 3 samples.

Results

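A set of 40 cell cycle genes was followed through the cell types of mouse spleen in 3 single-cell RNA libraries. The 40 members were taken by symbol from the 33696 genes of the count tables, and each symbol named 1 feature. Of them, 18 act mainly before and during DNA replication (S phase) and 22 in G2 phase and mitosis (M). A cell was counted as cycling when at least 3 of the 40 members had a UMI (a unique molecular identifier, which marks 1 captured RNA molecule). S and G2/M shares were counted alike, with at least 3 of the 18 or of the 22.

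The libraries came from spleens labelled Chow, MASH and MASH-Phe-free, made with a 5′ droplet kit, with 1 library per group. MASH is metabolic dysfunction-associated steatohepatitis, and Phe is phenylalanine. The series as a whole concerns liver cancer in mice with fatty liver. The strain, age, diets, number of mice and any tumour behind the spleen libraries are not given for them in the sources used here. With 1 library per group no test between conditions was possible. Every interval below is a 95% interval for counting error only, and a difference between conditions cannot be told apart from one between animals or preparations.

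Dividing cells pass through G1, S, G2 and M phase. In late G1, cyclin E and the E2F factors turn on genes that load the MCM helicase and supply nucleotides, and in G2 a second set of genes brings cyclin B with Cdk1, the Aurora and Polo kinases and the proteins of the spindle. Most mature blood cells rest, whereas red cell precursors, neutrophil precursors and germinal centre B cells divide, and the mouse spleen can make red cells as well as house lymphocytes.

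The S and G2/M members differ in letters of their promoters, which is shown here for some of the members named in the results. Each line is the 100 bases before the transcription start, 5′ to 3′ on the gene's strand, from RefSeq windows of build GRCm38.p6. Capitals mark the E2F words TTTGGCGC, TTTGCCGC, TTTCGCGC and TTTCCCGC, the CHR (cell cycle genes homology region) words TTTGAA and TTCGAA, and CCAAT, each on either strand. The windows are those of Mcm6 (chr1:128359706-128359805, minus strand), Cdk1 (chr10:69352913-69353012, minus strand), Top2a (chr11:99024190-99024289, minus strand) and Ube2c (chr2:164769829-164769928, plus strand).
Mcm6: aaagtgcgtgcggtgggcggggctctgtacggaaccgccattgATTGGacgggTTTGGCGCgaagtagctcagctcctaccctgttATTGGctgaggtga
Cdk1: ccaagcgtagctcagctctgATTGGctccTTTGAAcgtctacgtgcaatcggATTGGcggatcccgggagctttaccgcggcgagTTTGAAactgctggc
Top2a: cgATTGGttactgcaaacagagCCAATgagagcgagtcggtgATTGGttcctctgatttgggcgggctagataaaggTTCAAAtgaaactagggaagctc
Ube2c: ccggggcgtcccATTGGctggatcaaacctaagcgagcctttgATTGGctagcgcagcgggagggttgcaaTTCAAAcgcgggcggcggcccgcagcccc

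Mcm6, a subunit of the replicative helicase, has an E2F word between a pair of CCAAT boxes. Cdk1, the kinase that drives mitosis, Top2a, the topoisomerase that untangles chromosomes, and Ube2c, a ubiquitin-conjugating enzyme that works with the anaphase-promoting complex, each hold CCAAT boxes and a CHR word. The lines printed are not typical of all members. Mcm6 was the only S member with an E2F word in these 100 bases. Those of the G2/M members Ccnb1, Aurka and Plk1, among others, held no CHR word. Windows of 300 bases (250 before to 50 after the start) were found for 33 of the 40 members. An E2F word stood in 7 of 15 S members (46.7%) and in 1 of 18 G2/M members (5.56%), against 2.60% of 27025 genes. A CHR word stood in 14 of 18 G2/M members (77.8%) and 2 of 15 S members (13.3%), against 21.7% of all genes. CHR and CCAAT stood in the same window in 14 of 18 G2/M members, against 8.61% of all genes. These are matches of letters in a window and not binding sites.

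The libraries held 138787602, 152501471 and 160115282 UMIs in 16495, 19219 and 16778 barcodes (Chow, MASH and MASH-Phe-free, in this order throughout), of which 15598, 17279 and 15563 cells were kept. Between 65 and 89 barcodes were shared by each pair of libraries. Cells were clustered without the cell cycle genes and named "-like" from marker genes. Of them, 253, 372 and 182 cells stayed unnamed and 8, 18 and 12 were mixed in their markers. Parts of a class were also named from markers, and 1307, 1644 and 951 B-like cells and 951, 790 and 651 T-like cells had no named part.

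As sequenced, the rule marked nearly the same share of cells in each library: 39.3% in Chow (6124 of 15598), 37.7% in MASH (6510 of 17279) and 38.8% in MASH-Phe-free (6041 of 15563). Many of these cells sat at the threshold, since 2285, 2167 and 1848 cells held exactly 3 members and 2592, 2723 and 2409 held exactly 2. The marked cells were deeper than the others, with a median of 10062.5, 9987 and 10469 UMIs against 4569, 3345 and 4004. Cells with at least 3 S members but fewer than 3 G2/M members made up 69.8%, 59.7% and 51.9% of the marked cells.

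Follicular B-like cells, which are resting B cells, show which genes the rule counted. As sequenced, 47.1%, 46.4% and 43.5% of them were marked, while 0.592%, 0.619% and 1.02% had at least 3 G2/M members. Their S members summed to 361, 350.3 and 353 CPM (a gene's UMIs scaled to the same total in every class and library) and their G2/M members to 67.9, 66.9 and 77.1 CPM. Pcna, the sliding clamp of DNA polymerase, had a UMI in 44.1%, 43.3% and 41.7% of these cells. Cdt1, which helps to load the helicase, had one in 33.0%, 34.0% and 30.1%. The helicase genes Mcm3, Mcm4, Mcm6 and Mcm7, Rrm1 of ribonucleotide reductase and Cenpa, the centromere histone, were each found in 16.4% to 24.2% of the cells of a library. Cdk1 and Bub1, a kinase of the spindle checkpoint, were found in 0.108% to 0.269%.

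To compare cells at 1 depth, each cell was thinned to 1000 UMIs drawn at random, which left out 1578, 2218 and 1660 shallower cells. Mature neutrophil-like cells, which are known to have stopped dividing, then gave 0 of 611, 0 of 765 and 0 of 1088 cycling cells, counts of 0 that allow up to 0.491%, 0.392% and 0.276%. Unthinned, with medians of 4018, 4176 and 3966 UMIs, 0.809%, 0.648% and 0.998% of them had been marked. Follicular B-like cells came to 0.969%, 0.620% and 0.630%. Early erythroid-like cells, the young red cell precursors, stayed at 92.5% (62 of 67), 97.7% (253 of 259) and 96.6% (399 of 413).

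**Figure D1:**
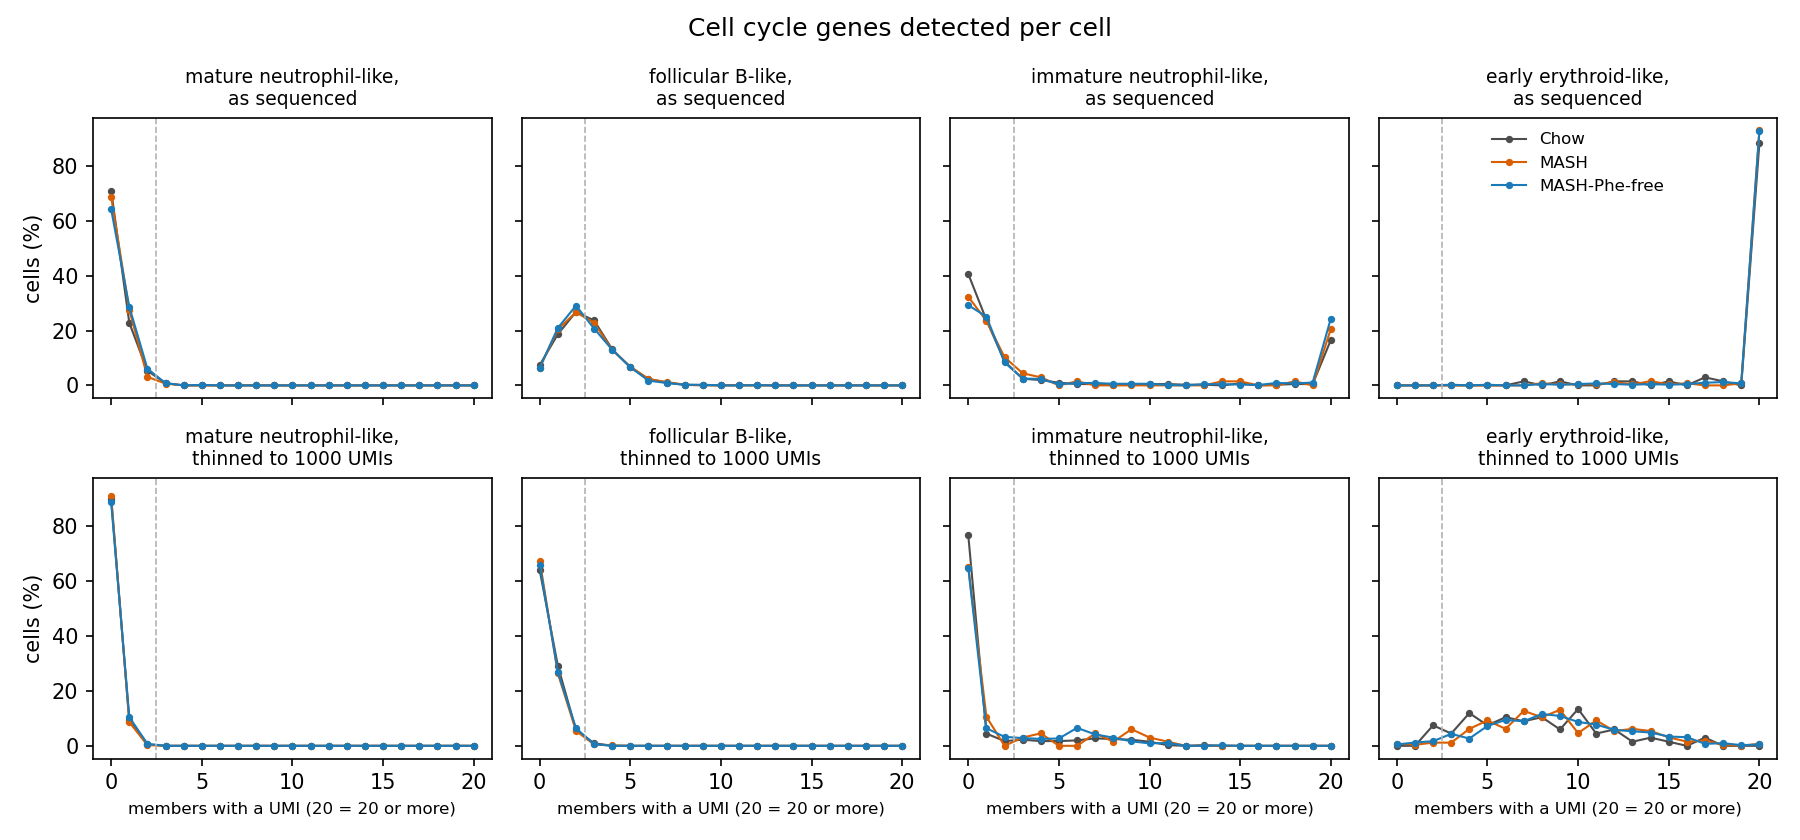
Share of cells (%) by the number of the 40 members with a UMI (20 stands for 20 or more), in 4 cell types, as sequenced (top) and thinned to 1000 UMIs (bottom), 1 line per library, with the dashed line just below 3 members. The most frequent number in follicular B-like cells is 2 as sequenced (26.7% to 29.1% of cells) and 0 after thinning (64.0% to 67.5%).

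After thinning, the libraries differed. The cycling share of all cells was 3.91% in Chow (548 of 14020, interval 3.59 to 4.24%), 7.45% in MASH (1122 of 15061, interval 7.04 to 7.88%) and 10.6% in MASH-Phe-free (1469 of 13903, interval 10.1 to 11.1%). MASH stood at 1.91 times Chow (1.73 to 2.11) and MASH-Phe-free at 1.42 times MASH (1.32 to 1.53), in comparisons that share the MASH library. S shares were 2.18%, 4.89% and 6.24%, and G2/M shares 2.25%, 5.23% and 7.03%. The libraries stood in the same order for S and for G2/M, with intervals that did not overlap.

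The cell types behind these shares differed between libraries. Erythroid-like cells made up 15.1%, 50% and 40.4% of the thinned cycling cells, and 0.744%, 5.94% and 4.68% of all cells. B-like cells gave 22.3%, 14.4% and 10.8% of the cycling cells and T-like cells 20.8%, 10.7% and 7.83%. Neutrophil-like cells gave 14.1%, 1.60% and 13.9%, and progenitor-like cells, the early blood-forming cells, 3.28%, 0.624% and 5.72%. The erythroid share was thus highest in MASH, and the neutrophil share lowest there. Without erythroid-like cells, the thinned cycling share was 3.34%, 3.98% and 6.60%, which put MASH at 1.19 times Chow (1.06 to 1.34) and MASH-Phe-free at 1.66 times MASH (1.496 to 1.84). With the classes weighted as in Chow, it was 3.91%, 4.21% and 6.29%. Both of these checks were added after the data were seen.

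**Figure D2:**
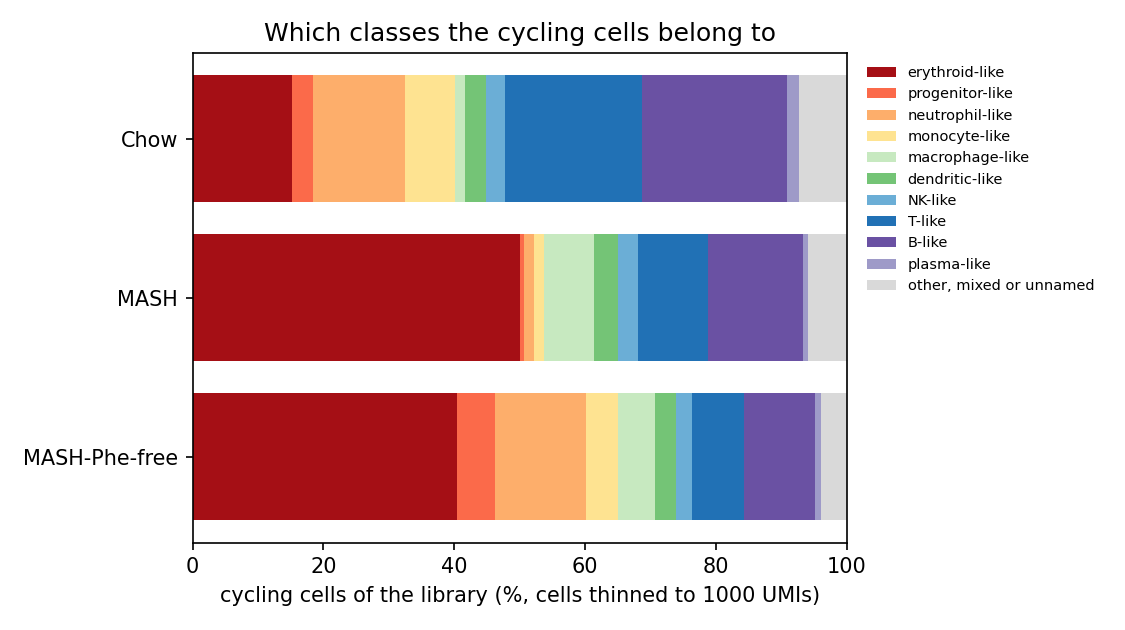
Classes to which the cycling cells of each library belong (% of cycling cells, thinned to 1000 UMIs), 1 bar per library from 0 to 100%. Erythroid-like cells take 15.1%, 50% and 40.4% in Chow, MASH and MASH-Phe-free.

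Summed over all cells, most members were higher in MASH than in Chow. By at least 1.5 times, 36 of 40 were higher and 0 of 40 lower, where 9.79% of 19382 genes were higher by as much. The highest ratios were those of Cdc6, a loader of the helicase (9.38, 30.9 and 39.1 CPM, 3.30 times), Ccne1, which encodes cyclin E1 (11.0, 32.3 and 41.9 CPM, 2.93 times), and Rrm2 of ribonucleotide reductase (31.7, 85.0 and 112 CPM, 2.68 times). In MASH-Phe-free over MASH, 7 of 22 G2/M members and 0 of 18 S members were higher, against 8.41% of all genes. Cdc20, the activator of the anaphase-promoting complex (22.5, 34.6 and 54.8 CPM), Cdca8 of the chromosomal passenger complex (29.3, 48.3 and 75.7 CPM) and Ube2c (54.9, 105 and 162 CPM) led them. With clusters weighted alike in the libraries of a comparison, 0 of the 40 members passed 1.5 times in either comparison.

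**Figure D3:**
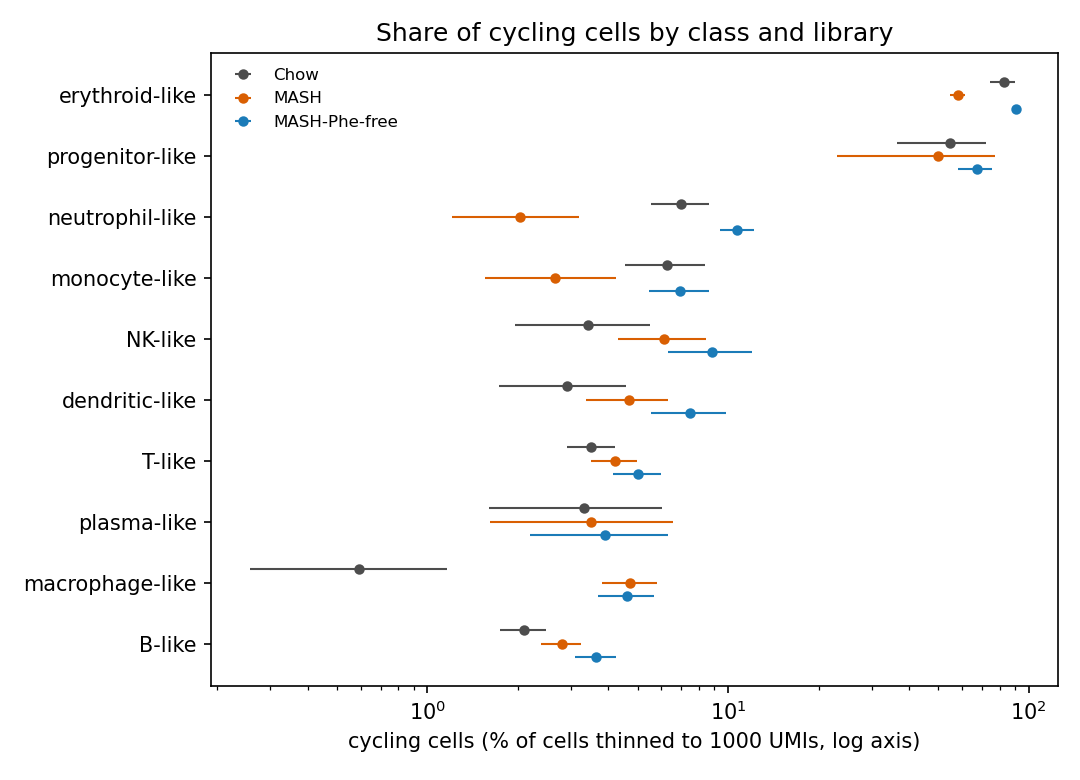
Cycling cells (% of cells thinned to 1000 UMIs, log axis) in 10 classes, 1 point per library with its exact 95% binomial interval. MASH is the lowest library in erythroid-, progenitor-, neutrophil- and monocyte-like cells. Chow is the lowest in the other classes, at 0.594% in macrophage-like cells.

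Early erythroid-like cells carried the whole programme in all 3 libraries. They numbered 68, 259 and 413, at a median depth of 46020, 50803 and 59385 UMIs, and as sequenced they held a median of 38, 39 and 39 of the 40 members. Mcm7, another helicase subunit, had a UMI in 97.1%, 96.1% and 96.1% of them, and E2f1, a factor that turns on S phase genes, in 63.2%, 70.7% and 71.9%. Mki67, which encodes the Ki-67 protein of mitotic chromosomes, was at 975.3, 1054 and 1025 CPM. Top2a was at 686, 738 and 769, Pcna at 619, 774 and 743 and the helicase gene Mcm5 at 289, 316 and 313 CPM. None of the 40 members reached 1.5 times in either comparison, where 5.52% of all genes were higher and 13.1% lower in MASH over Chow, and 4.68% and 4.89% in MASH-Phe-free over MASH. The highest ratio in MASH over Chow was that of Plk1, the Polo kinase of mitosis (82.9, 118 and 129 CPM, 1.43 times). Between libraries, these cells differed in number more than in the level of the members.

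In the whole erythroid-like class the thinned cycling share was 83.0% in Chow (83 of 100), 58.0% in MASH (561 of 967) and 90.7% in MASH-Phe-free (594 of 655). MASH was the low library, at 0.699 times Chow (0.630 to 0.775), and MASH-Phe-free stood at 1.56 times MASH (1.47 to 1.66). In the summed counts of the class 0 of 40 members were higher and 0 of 40 lower (9.66% and 21.2% of all genes) in MASH over Chow, and 0 of 40 were higher and 0 of 40 lower (8.53% and 11.8% of all genes) in MASH-Phe-free over MASH. Besides early and late cells, the class held 29, 201 and 200 cells with no named part and 16, 152 and 86 that were mixed in their markers. Late erythroid-like cells, which are filling with haemoglobin, numbered 3, 415 and 30, most of them in MASH. There, 31.1% cycled after thinning (127 of 409), with a G2/M share of 29.8% and an S share of 16.6%. Clustered by library, 7.82% of them cycled (23 of 294). In early cells of MASH of the common clustering those shares were 78.4% and 81.1%. The 10 erythroid markers, haemoglobin included, summed to 226066 CPM in late cells of MASH with at least 5 members and to 648397 CPM in the others, and the part of this in the thinned share was not tested.

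Neutrophil-like cells cycled least in MASH. Their thinned share was 6.97% in Chow (77 of 1104), 2.03% in MASH (18 of 887) and 10.7% in MASH-Phe-free (204 of 1899), so that MASH stood at 0.291 times Chow (0.176 to 0.482) and MASH-Phe-free at 5.29 times MASH (3.29 to 8.51). Of 40 members, 33 were at least 1.5 times lower in MASH than in Chow (with 29.8% of all genes lower) and 39 higher in MASH-Phe-free than in MASH (with 29.5% higher). Mcm2, a helicase subunit, was at 8.72, 2.17 and 12.4 CPM and Mki67 at 279, 131 and 289.8. The immature cells within the class numbered 411, 68 and 681, so few of the MASH cells were immature. Among immature cells alone, 17.1% (69 of 404), 24.2% (16 of 66) and 25.4% (171 of 672) cycled, and Mki67 was at 372, 412 and 387 CPM. When the libraries were clustered separately, 78 of 373 immature cells in Chow and 18 of 96 in MASH cycled. In the immature cells of the common clustering, 6 members were higher and 1 lower in MASH than in Chow (7.27% and 11.9% of all genes). Against MASH, 1 was higher and 1 lower in MASH-Phe-free (11.8% and 7.4% of all genes).

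Immature neutrophil-like cells leaned to G2/M genes. Their G2/M share was 14.4%, 18.2% and 22.02% and their S share 5.45%, 6.06% and 5.36%. S members summed to 628, 693 and 739.9 CPM and G2/M members to 2162, 2836 and 2648 CPM. In early erythroid-like cells the sums lay closer, at 4503, 5390.1 and 5239 CPM for S and 5036, 5851 and 5988 CPM for G2/M. Other types leaned to G2/M genes as well. The S sum was 0.366, 0.632 and 0.520 times the G2/M sum in monocyte-like cells and 0.797, 0.552 and 0.516 times in germinal centre B-like cells. In immature neutrophil-like cells it was 0.290, 0.244 and 0.279 times. Ccnb1, which encodes cyclin B1, had the highest ratio in MASH over Chow among immature neutrophil-like cells (37.1, 80.3 and 51.5 CPM, 2.17 times), a value that rests on 68 cells in MASH.

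**Figure D4:**
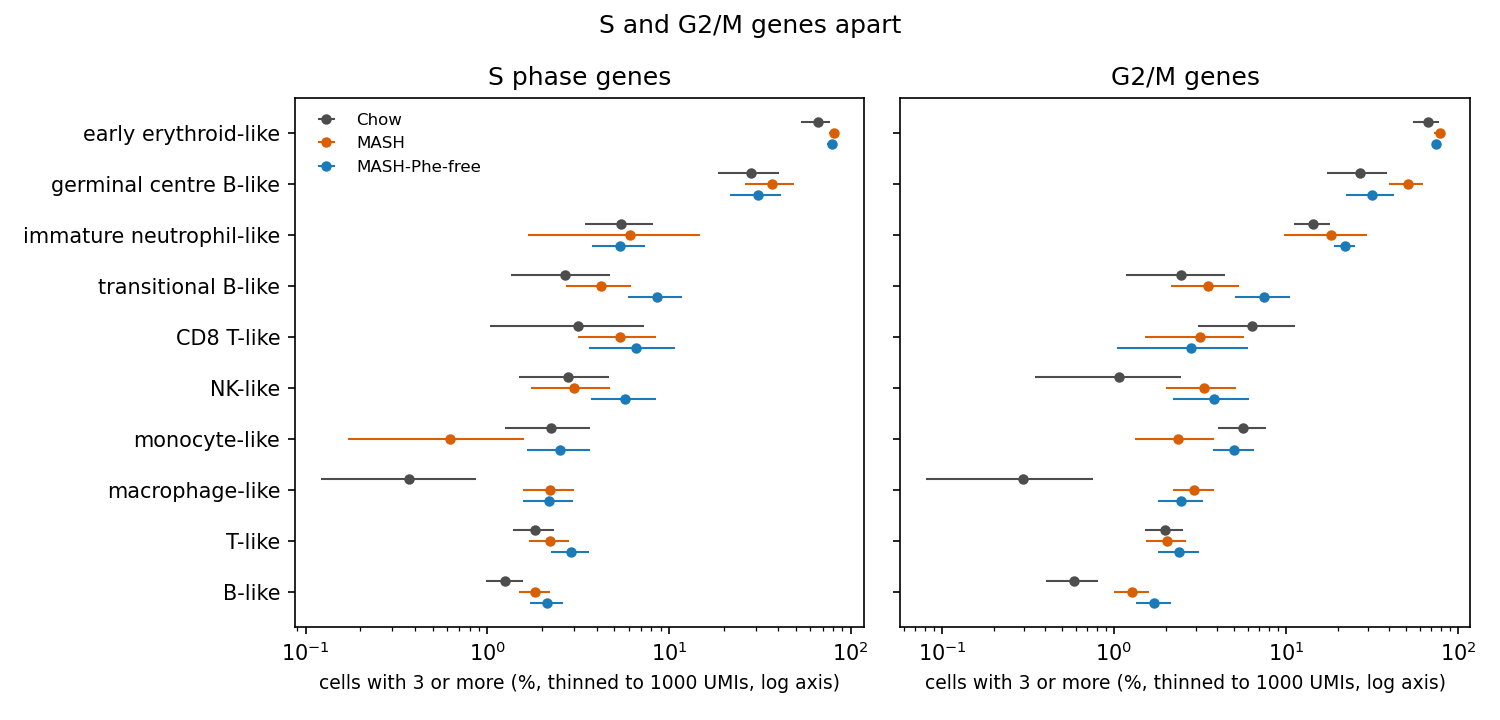
Cells with at least 3 S members (left) and at least 3 G2/M members (right), as % of cells thinned to 1000 UMIs on log axes, in 10 cell types, 1 point per library with its exact 95% binomial interval. Immature neutrophil-like cells lie at 5.36% to 6.06% for S and 14.4% to 22.02% for G2/M.

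B-like cells had more G2/M gene RNA in MASH than in Chow, and more again in MASH-Phe-free, with G2/M members summing to 198, 371 and 535 CPM. A few cells held much of it, since the 78, 79 and 94 germinal centre B-like cells of 5955, 6007 and 4453 B-like cells gave 3949 of 10205, 8222 of 18848 and 7993 of 20485 of the G2/M UMIs of the class. The other B-like cells gave most of these UMIs in each library. In germinal centre B-like cells the sum was 3893, 6003 and 5259 CPM, lower in MASH-Phe-free than in MASH. In follicular B-like cells the sum was 67.9, 66.9 and 77.1 CPM. The thinned cycling share of the whole B-like class was 2.09% (122 of 5838), 2.79% (162 of 5798) and 3.64% (159 of 4373), with ratios of 1.34 (1.06 to 1.69) and 1.30 (1.05 to 1.61). With at least 2 members the first ratio was 1.10 (0.969 to 1.249), and with cells thinned to 3000 UMIs the second was 1.09 (0.969 to 1.22) and with at least 5 members 1.31 (0.979 to 1.76), intervals that include 1. By at least 1.5 times, 19 of 22 G2/M members and 2 of 18 S members were higher in MASH than in Chow, and 0 of 40 were lower, with 5.88% of all genes higher and 4.57% lower. In MASH-Phe-free over MASH, 10 of 22 G2/M and 2 of 18 S members were higher, against 4.03% of all genes. Ube2c was at 7.84, 20.6 and 38.0 CPM (MASH over Chow 2.63 times, 2.35 to 2.96), Bub1 at 1.999, 4.85 and 5.49 CPM (2.42 times, 1.92 to 3.08) and Cenpf, a kinetochore protein, at 5.80, 13.7 and 23.4 CPM (2.36 times, 2.06 to 2.71). Mki67 was at 31.8, 62.8 and 87.3 and Top2a at 33.0, 63.4 and 90.4 CPM. The S members lay closer together, with Pcna at 93.4, 98.6 and 108, Mcm5 at 23.2, 30.1 and 34.3 and Mcm7 at 40.5, 40.4 and 44.3 CPM.

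Germinal centre B-like cells, which divide during antibody maturation, had the highest cycling share of the B-like parts. They numbered 78, 79 and 94, and 48.6% (36 of 74), 61.8% (47 of 76) and 58.2% (53 of 91) cycled after thinning. Their G2/M share was 27.0%, 51.3% and 31.9%, with MASH at 1.90 times Chow (1.23 to 2.93) and MASH-Phe-free at 0.621 times MASH (0.428 to 0.901). These ratios were 1.14 (0.802 to 1.62) and 0.909 (0.662 to 1.248) with cells thinned to 3000 UMIs, and 20.7 (7.85 to 54.6) and 0.344 (0.260 to 0.454) when the libraries were clustered separately, where MASH had 20 such cells. The interval of the second included 1 in 6 of 10 alternatives. There 16 of 22 G2/M members and 0 of 18 S members were at least 1.5 times higher in MASH than in Chow (9.04% of all genes). Aurka, the Aurora A kinase of the spindle poles, was at 33.5, 86.2 and 59.2 CPM, and Cdc6, lower in MASH than in Chow, at 67.0, 29.9 and 28.9 CPM. Between MASH-Phe-free and MASH, 0 of 40 members were higher in MASH-Phe-free and 4 of 40 lower (7.44% and 7.62% of all genes).

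Transitional B-like cells, named from markers that include Vpreb3, Cd93, Rag1 and Igll1, cycled at 5.37% (22 of 410), 5.79% (33 of 570) and 11.6% (45 of 387) after thinning. As sequenced, 17, 33 and 48 of them held at least 10 members, while the marked cells held a median of 4 in each library. Whether B cell precursors were among them was not tested. By at least 1.5 times, 13 of 40 members were higher and 0 of 40 lower (5.97% and 5.54% of all genes) in MASH over Chow. Between MASH-Phe-free and MASH, 30 of 40 members were higher in MASH-Phe-free, against 7.76% of all genes. Tyms, the thymidylate synthase, was at 34.7, 31.1 and 83.5 CPM and Ccnb1 at 14.2, 16.4 and 43.5. The order of the shares turned when each library was clustered on its own, with 26 of 766 cells cycling in MASH and 9 of 336 in MASH-Phe-free (ratio 0.789, in place of 2.01). Over 10 alternatives the ratio reached 4.61, with more cell cycle genes kept out of the clustering, and its interval included 1 in 5. Marginal zone B-like cells, which wait at the edge of the follicles, cycled at 0.669%, 0.566% and 0.520%. In these cells 8 of 36 measured members were higher and 1 of 36 lower (5.03% and 4.22% of all genes) in MASH over Chow, and 9 of 37 were higher and 0 of 37 lower (2.66% and 4.25% of all genes) in MASH-Phe-free over MASH. The members measured in follicular B-like cells gave 2 of 29 higher and 4 of 29 lower (4.37% and 3.71% of all genes) in MASH over Chow, and 6 of 29 were higher and 1 of 29 lower (2.52% and 4.52% of all genes) in MASH-Phe-free over MASH.

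Plasma-like cells, which secrete antibody, gave 10 of 301, 9 of 257 and 15 of 386 cycling cells after thinning (3.32%, 3.50% and 3.89%). In their summed counts, 26 of 38 measured members were at least 1.5 times lower in MASH than in Chow and 0 of 38 higher (15.3% and 4.45% of all genes). Of those measured in MASH-Phe-free and MASH, 34 of 39 were higher in MASH-Phe-free and 0 of 39 lower (11.8% and 5.03% of all genes). Top2a was at 37.3, 11.6 and 30.3 CPM and Ube2c at 37.9, 8.14 and 44.4. When the libraries were clustered separately, the plasma-like cells that cycled were 2 of 294, 6 of 252 and 57 of 430, which put MASH-Phe-free at 5.57 (2.44 to 12.7) times MASH. In cells with at least 5 members the 10 erythroid markers, haemoglobin included, summed to 1287, 496 and 82.4 CPM (with 5, 4 and 2 markers at 0) and in the others to 8.19, 74.8 and 38.8 CPM, and their part in the levels was not tested.

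The ratios between libraries were small in T-like cells, though they depended on the clustering. Their thinned cycling share was 3.51% (114 of 3245), 4.196% (120 of 2860) and 5.01% (115 of 2295), with ratios of 1.19 (0.929 to 1.54) and 1.19 (0.930 to 1.53), whose intervals include 1. When the libraries were clustered separately the counts were 56 of 3187, 78 of 2805 and 115 of 2291 and the ratios 1.58 (1.13 to 2.22) and 1.81 (1.36 to 2.39), and with cells thinned to 3000 UMIs the second ratio was 1.34 (1.18 to 1.52), all with intervals above 1. Aurka (8.94, 5.83 and 6.89 CPM) was the 1 member past 1.5 times in MASH over Chow, and it was lower, where 3.84% of all genes were lower and 5.96% higher. Past the same fold, 0 of 40 members were higher in MASH-Phe-free than in MASH and 0 of 40 lower (4.05% and 4.54% of all genes). Mki67 was at 119, 133 and 154 CPM. In T-like cells with at least 5 members the 10 erythroid markers, haemoglobin included, summed to 257, 1189 and 72.9 CPM, against 87.2, 192 and 107 CPM in the rest. Of these markers, 2, 0 and 1 were at 0 in the cells with at least 5 members. The 10 B cell markers summed to 96.7, 148 and 108 CPM, against 91.1, 76.7 and 110 CPM. The part of these markers in the T-like result was not tested. Among the named parts, CD8 T-like cells had the highest share, 12.7% (20 of 158), 9.78% (31 of 317) and 9.39% (20 of 213), and CD4 T-like cells the lowest, 0.989% (12 of 1213), 1.30% (12 of 926) and 1.74% (12 of 690). In CD8 T-like cells 19 of 22 G2/M members and 2 of 18 S members were at least 1.5 times lower in MASH than in Chow (7.23% of all genes), with Mki67 at 305, 177 and 186 CPM.

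NK-like cells had more G2/M gene RNA in MASH and MASH-Phe-free than in Chow. In MASH over Chow, 22 of 22 G2/M members and 9 of 18 S members were at least 1.5 times higher, against 6.84% of all genes. B cell markers moved with them, since the 10 B cell markers summed to 67.6, 365 and 346 CPM in NK-like cells with at least 5 members and to 79.5, 81.3 and 72.3 CPM in the rest, with no marker at 0, and their part in the result was not tested. Ube2c was at 8.39, 81.6 and 109 CPM, Cdk1 at 5.77, 32.3 and 45.4 and Ccna2, which encodes cyclin A2, at 7.34, 40.4 and 52.1. Mki67 was at 75.5, 222 and 278 CPM. The ratios of Mcm7 (52.4, 62.8 and 63.7 CPM), Mcm4 (69.7, 83.3 and 92.0 CPM) and Cdt1 (43.0, 36.0 and 46.5 CPM) were the lowest. In MASH-Phe-free over MASH, 3 of 40 members were higher, against 4.64% of all genes. The thinned cycling share was 3.41% (16 of 469), 6.13% (35 of 571) and 8.85% (37 of 418), with MASH at 1.80 times Chow (1.007 to 3.20). This ratio was 1.14 with cells thinned to 3000 UMIs and 2.87 with at least 5 members, and its interval included 1 in 5 of 10 alternatives. With doublets removed up to the rate expected from the number of barcodes, the order of Chow and MASH turned, at 9 of 414 and 8 of 497 cells, with 15 of 350 in MASH-Phe-free.

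Macrophage-like cells had the widest ratio between Chow and MASH of the 10 classes when counted at 3 members and 1000 UMIs. After thinning, 0.594% in Chow (8 of 1347), 4.73% in MASH (86 of 1818) and 4.60% in MASH-Phe-free (84 of 1825) cycled, so that MASH stood at 7.96 times Chow (3.87 to 16.4) and MASH-Phe-free at 0.973 times MASH (0.725 to 1.30). The first ratio rests on 8 cells in Chow, a share below that of the resting follicular B-like cells of Chow. It was 2.46 with at least 2 members, 3.65 with cells thinned to 3000 UMIs, 4.75 with clusters at resolution 0.5, 5.11 with no doublets removed and 12.1 when the libraries were clustered separately, and its interval stayed above 1 in the 11 alternatives tried. Another 1170, 1496 and 1257 macrophage-like cells were too shallow to be thinned. By at least 1.5 times, 19 of 21 measured G2/M members and 8 of 16 S members were higher in MASH than in Chow, against 5.49% of all genes. Ube2c was at 3.78, 25.9 and 41.0 CPM, Cdk1 at 1.51, 9.84 and 15.8 and Nusap1, a spindle protein, at 2.65, 14.9 and 16.5. MASH-Phe-free had 19 of 40 measured members higher than MASH and 0 of 40 lower (9.87% and 3.88% of all genes).

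Erythroid markers moved with these macrophage-like cells. In cells with at least 5 members, the 10 erythroid markers summed to 827, 7621 and 9084 CPM, and in cells with fewer members to 762, 3050.3 and 3680.0 CPM. Without haemoglobin the sums were 54.0, 297 and 251 CPM and 82.0, 127 and 147 CPM. Slc4a1, the anion exchanger of red cells, was at 0 in the Chow cells with at least 5 members, and no marker was at 0 in those of the other libraries. The 10 B cell markers summed to 1347, 378 and 229 CPM in the cells with at least 5 members and to 296, 219 and 250.1 CPM in the rest. The part of the B cell markers in the result was not tested. A check added after the data were seen took macrophage-like cells with no UMI of an erythroid marker other than haemoglobin. Of these, 0.517% (6 of 1160), 3.61% (54 of 1494) and 3.73% (54 of 1447) cycled after thinning, with MASH at 6.99 times Chow (3.02 to 16.2). Haemoglobin, most of the erythroid sum, was left out of this filter, and in shallow cells a marker RNA can go uncaptured. The check therefore cannot set apart all cells with erythroid RNA, and the part of that RNA in the ratio was not tested.

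Monocyte-like cells cycled at 6.25% (42 of 672), 2.66% (17 of 639) and 6.94% (72 of 1037) after thinning. In MASH over Chow, 22 of 22 G2/M members and 12 of 18 S members were at least 1.5 times lower (8.37% of all genes). Top2a was at 197, 59.1 and 154 CPM and Mki67 at 246, 84.1 and 209.8. Set against MASH, MASH-Phe-free had 37 of 40 members higher and 0 of 40 lower (5.88% and 5.91% of all genes). In monocyte-like cells with at least 5 members the 10 neutrophil markers summed to 1376, 1607 and 4206 CPM, highest in MASH-Phe-free, against 408, 723 and 658 CPM in the rest. The 10 T cell markers summed to 99.3, 188 and 38.8 CPM there, against 24.5, 12.1 and 11.9 CPM in the rest. The 10 B cell markers summed to 330, 390 and 101 CPM, against 102, 123 and 109 CPM. No marker of these lists was at 0, and their part in the result was not tested. The comparison of MASH with Chow turned when each library was clustered on its own, with 7 of 617 cells cycling in Chow, 21 of 642 in MASH and 48 of 1001 in MASH-Phe-free. MASH then stood at 2.88 (1.23 to 6.73) times Chow, in place of 0.426 (0.245 to 0.740), and MASH-Phe-free at 1.47 (0.886 to 2.42) times MASH, in place of 2.61 (1.55 to 4.39). With at least 2 members the first ratio was 0.684 (0.464 to 1.008). Dendritic-like cells cycled at 2.91% (18 of 618), 4.68% (40 of 855) and 7.496% (47 of 627), with Top2a at 76.4, 78.7 and 153 CPM. Among them 10 of 40 members were higher and 0 of 40 lower (6.37% and 6.19% of all genes) in MASH over Chow, and 11 of 40 were higher and 0 of 40 lower (7.08% and 7.46% of all genes) in MASH-Phe-free over MASH. The neutrophil markers summed to 2317, 113 and 429 CPM in dendritic-like cells with at least 5 members, highest in Chow, against 260, 58.0 and 177 CPM in the rest. The B cell markers summed to 637, 427 and 399 CPM, against 270, 179 and 293 CPM. The part of these markers in the dendritic-like result was not tested. Progenitor-like cells cycled at 54.5% (18 of 33), 50% (7 of 14) and 67.2% (84 of 125), few cells in Chow and MASH. When the libraries were clustered separately these counts were 5 of 21, 2 of 31 and 102 of 122, which moved MASH-Phe-free over MASH from 1.34 to 12.96 (3.38 to 49.6).

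**Figure D5:**
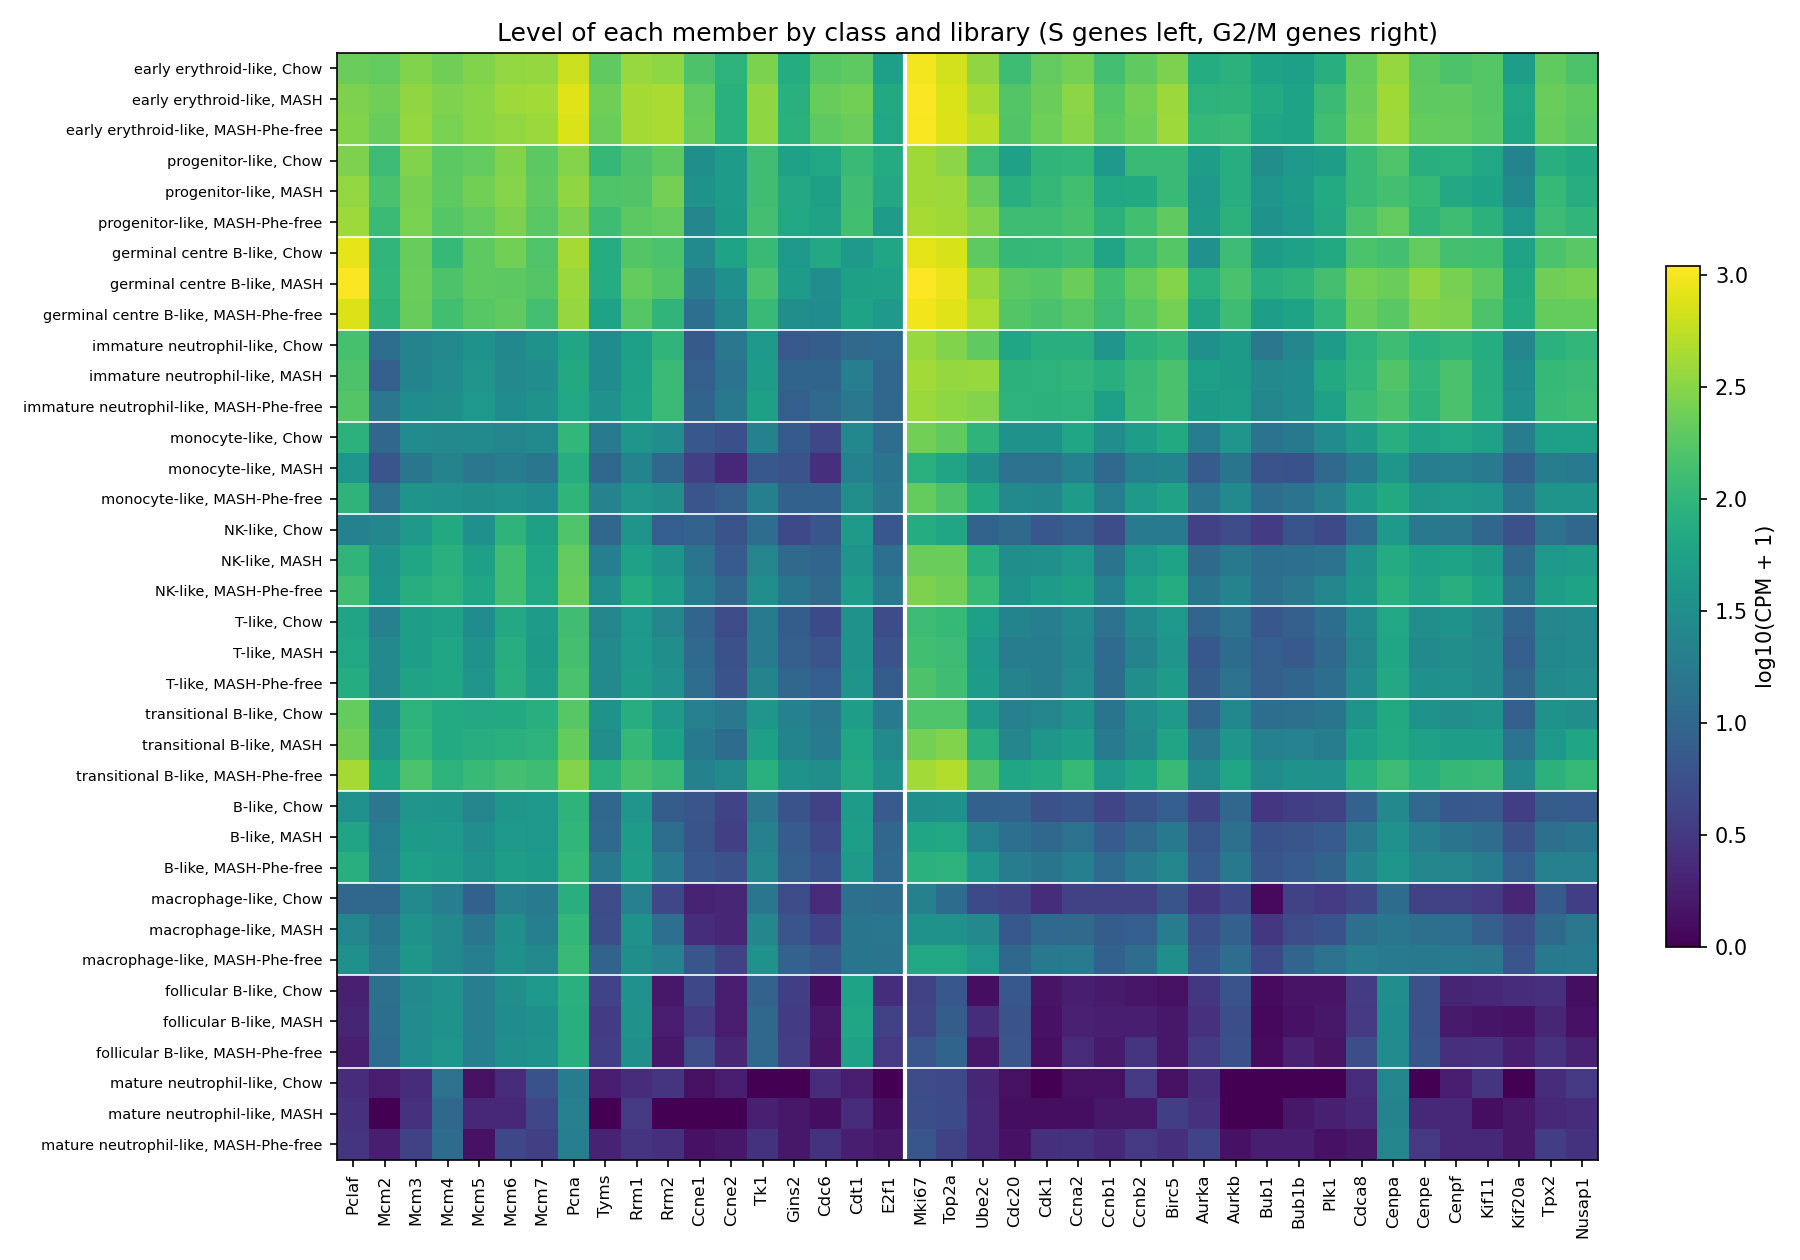
Level of each of the 40 members as log10(CPM + 1) (colour) in 12 cell types and 3 libraries (rows), with S genes left and G2/M genes right of the white line. Early erythroid-like cells are high in all members, while follicular B-like cells keep S genes such as Pcna (84.8, 79.5 and 78.9 CPM) and mature neutrophil-like cells keep Cenpa (23.8, 22.4 and 24.2 CPM).

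Other genes of the cycle were read in B-like cells, the class with the most marked cells as sequenced. Of the other mitosis genes, 19 of 40 were at least 1.5 times higher in MASH than in Chow and 0 of 40 lower, where 5.88% of all genes were higher and 4.57% lower, among them Ckap2l (4.21, 9.75 and 13.2 CPM) and the kinesin gene Kif2c (1.09, 2.48 and 3.82 CPM). Of the other replication genes, 2 of 30 were higher, Dscc1 (2.17, 3.51 and 3.32 CPM) and Chaf1a (4.70, 7.17 and 8.42 CPM). Of the cyclin D and G1 kinase genes, 1 of 10 was lower and 0 of 10 higher. The lower gene was Ccnd3, which encodes cyclin D3 (787, 390.4 and 425 CPM, 0.496 times). Of the E2F and DP factors, 2 of 11 were higher, E2f8 (2.06, 3.64 and 4.44 CPM) and E2f7 (1.24, 2.13 and 3.01 CPM), both repressors of E2F targets. Of the inhibitors, 1 of 17 was higher, Cdkn2b with 4, 18 and 6 UMIs, and 1 of 17 lower, Cdkn1a, which encodes p21 (2.41, 1.38 and 3.14 CPM). In MASH-Phe-free over MASH, 8 of 40 mitosis genes, 1 of 30 replication genes and 1 of 11 E2F and DP factors were higher, where 4.03% of all genes were, with the kinase gene Pbk (1.46, 2.56 and 5.38 CPM), Uhrf1 (9.86, 14.1 and 21.9 CPM) and Mybl2 (4.50, 4.197 and 6.82 CPM).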

How the data were processed

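The 3 droplet libraries of mouse spleen were deposited as raw counts of UMIs per gene and barcode. The authors made these counts with Cell Ranger 9.0.1, per the file headers, and the submitters' processing notes also name Seurat 5.3.0 and the builds GRCm39 and mm39. Cells with at least 300 genes and 500 UMIs and at most 10% mitochondrial UMIs were kept. Scrublet (in scanpy 1.11.5) removed 2.41%, 2.11% and 1.90% of cells as doublets. A rate assumed to rise with the number of barcodes gives 13.2%, 15.4% and 13.4%, the expected rate used above. Cells of all libraries were clustered together (Leiden, igraph 0.11.9, resolution 1) on 2000 variable genes, 30 components and 15 neighbours, without the cell cycle lists, and named from fixed markers.

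Shares have exact Clopper-Pearson intervals, their ratios log-binomial intervals, and CPM ratios exact conditional Poisson intervals (scipy 1.17.1), all at 95%. The limit for a count of 0 is 3 counts. A gene counts as higher or lower past 1.5 times with at least 20 UMIs in both libraries together. The scripts were tested on simulated data. Named members were the 3 highest and 3 lowest ratios with at least 50 UMIs, Mki67, Top2a, Pcna and Mcm5, and up to 4 genes of each other list. Cdkn2b, the genes of CD8 T-like and follicular B-like cells and those given by their share of cells were named after their values were seen. The members and lists were chosen with earlier results of these data known. The alternatives concerned the number of members, thinning, clustering, cell filters, doublets, UMI minimum, fold and weighting.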

Additional observations from a re-analysis of the deposited data

Results flagged for a closer look

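The thinned cycling share moved in opposite directions between Chow and MASH in different cell types. It was higher in MASH in B-like cells (1.34 times), NK-like cells (1.80 times) and macrophage-like cells (7.96 times). It was lower in MASH in monocyte-like cells (0.426 times), neutrophil-like cells (0.291 times) and erythroid-like cells (0.699 times). The last 2 classes differed in their parts, with 411 immature neutrophil-like cells in Chow and 68 in MASH, and 3 and 415 late erythroid-like cells. Within immature neutrophil-like cells the ratio was 1.42 (0.880 to 2.29) and within early erythroid-like cells 1.06 (0.984 to 1.13), with intervals that include 1. The NK-like ratio turned to 0.740 (0.288 to 1.90) with doublets removed to the expected rate, and the monocyte-like ratio to 2.88 (1.23 to 6.73) with each library clustered on its own. With 1 library per group, the difference between cell types was not tested.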

How the results depend on the processing

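Values here are log2 ratios of shares for the cell type named, and each is one that turned its direction or moved beyond its counting interval. All values that turned from a counting interval without 0 are listed. Of those that only moved, the list holds the cycling share of all cells and the thinned cycling share of classes. It also holds the makeup of the cycling cells and the member counts in all cells. Other values that moved are left out. No paired analysis was possible because each group has 1 library, and none could be left out. As sequenced, the cycling share of all cells had a log2 ratio of -0.059 in MASH over Chow and 0.043 in MASH-Phe-free over MASH, and thinned 0.93 and 0.50. Choices marked as added were made after the data were seen. The causes were not tested. With at least 5 members, MASH over Chow as sequenced gave 0.21 in all cells, 0.063 in B-like cells, 0.28 in all cells (S) and 0.14 in B-like (S), and MASH over Chow thinned gave 1.11 in all cells and 0.022 in erythroid-like (S), and MASH-Phe-free over MASH as sequenced gave 0.17 in all cells, and erythroid-like cells made up 4.36%, 21.5% and 22.02% of the cycling cells. With cells thinned to 1000 UMIs, MASH over Chow gave 0.93 in all cells, 0.42 in B-like cells, -1.23 in monocyte-like cells, 1.17 in all cells (S) and 0.55 in B-like (S), and MASH-Phe-free over MASH gave 0.50 in all cells, 1.38 in monocyte-like cells, -0.039 in macrophage-like cells, 2.002 in monocyte-like (S) and -0.0055 in macrophage-like (S), and erythroid-like cells made up 15.1%, 50% and 40.4% of the cycling cells. With cells thinned to 3000 UMIs, MASH over Chow gave 0.37 in all cells, 0.20 in B-like cells, -0.52 in monocyte-like cells, 0.43 in all cells (S) and 0.19 in B-like (S), and MASH over Chow gave 1.87 in macrophage-like cells, and MASH-Phe-free over MASH gave 0.31 in all cells, 0.70 in monocyte-like cells and 0.92 in monocyte-like (S). With each library clustered on its own, MASH over Chow thinned gave 1.81 in plasma-like cells, 0.66 in T-like cells, 1.53 in monocyte-like cells, -1.88 in progenitor-like cells and 1.45 in monocyte-like (G2/M), and MASH-Phe-free over MASH as sequenced gave -0.23 in transitional B-like (G2/M), and MASH-Phe-free over MASH thinned gave 0.85 in B-like cells, 2.48 in plasma-like cells, 0.85 in T-like cells, 0.55 in monocyte-like cells, 3.70 in progenitor-like cells, -0.34 in transitional B-like cells and -0.47 in transitional B-like (S). With a stricter cell filter, MASH over Chow thinned gave -0.29 in erythroid-like cells, and MASH-Phe-free over MASH as sequenced gave -0.0023 in all cells, and MASH-Phe-free over MASH thinned gave 0.42 in erythroid-like cells. With doublets removed to the expected rate, MASH over Chow as sequenced gave -0.12 in all cells, and MASH over Chow thinned gave -0.43 in NK-like cells, -1.01 in erythroid-like cells and -0.016 in early erythroid-like (S), and MASH-Phe-free over MASH thinned gave 1.41 in NK-like cells and 1.08 in erythroid-like cells. With at least 2 members, MASH over Chow thinned gave 0.53 in all cells and 1.30 in macrophage-like cells, and MASH-Phe-free over MASH thinned gave 0.31 in all cells. Without erythroid-like cells (added), MASH over Chow as sequenced gave -0.13 in all cells. With cells thinned to 1000 UMIs and without erythroid-like cells (added), MASH over Chow gave 0.25 in all cells, and MASH-Phe-free over MASH gave 0.73 in all cells. Without erythroid-, neutrophil- and progenitor-like cells (added), MASH over Chow as sequenced gave -0.13 in all cells. With cells thinned to 1000 UMIs and without erythroid-, neutrophil- and progenitor-like cells (added), MASH over Chow gave 0.49 in all cells, and MASH-Phe-free over MASH gave 0.36 in all cells. With at least 10 members (added), MASH over Chow as sequenced gave 0.82 in all cells, and MASH-Phe-free over MASH as sequenced gave 0.64 in all cells, and erythroid-like cells made up 16.1%, 50.96% and 38.7% of the cycling cells. With cells thinned to 1000 UMIs, classes weighted as in the Chow library (added), MASH over Chow gave 0.11 in all cells. With the clusters weighted alike, the members higher in all cells numbered 0 in MASH over Chow and 0 in MASH-Phe-free over MASH. With a lower fold, the members higher in all cells numbered 29 in MASH-Phe-free over MASH. Clustering at resolution 0.5 turned none of 174 values or moved one beyond its counting interval. With each library clustered on its own, 58 values moved and 5 turned. Thinning to 1000 UMIs moved 46 and turned 9, and thinning to 3000 UMIs moved 50 and turned 7. With doublets removed to the expected rate 34 moved and 2 turned, and with at least 5 members 31 moved and 5 turned. Depth limits the share in macrophage-like cells, with a median of 1057, 1076 and 1163 UMIs.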
